A study of Mus musculus with 16 samples.

Results

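The Sin3 complex is a histone deacetylase corepressor, and 10 of its subunits were followed here in KPC1199 cells: Sin3a, Sin3b, Hdac1, Hdac2, Rbbp4, Rbbp7, Sap30, Suds3, Sap130 and Phf12. They were chosen by name, as core and accessory subunits of the complex, and all 10 were found in both count tables, which hold 55414 and 56980 genes. All 10 also passed the filter on low counts in both experiments. KPC1199 is a mouse pancreatic ductal adenocarcinoma (PDAC) cell line from tumors of mice whose alleles include Pdx-cre and Trp53 R172H, which all groups share. RNA-seq covered 16 libraries in 6 groups. In the untreated experiment, 2 libraries carried the control guide (sgCtrL) and 2 the guide against Sin3B (Sin3Bsg1). In the IFNγ experiment, sgCtrL and Sin3Bsg1 cells were profiled without IFNγ and after 24 h with IFNγ at 10 ng/ml, with 3 libraries in each of the 4 groups. Cas9 and the guide came from 1 lentiviral vector (lentiCRISPR v2) and cells were selected with puromycin. RNA-seq used 1 Sin3B guide, and whether the edited cells were a pool or a clone is not given in the sources used here. The comparisons asked how far Sin3b RNA fell, whether other subunits rose when it did, and whether IFNγ changed any of them.

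SIN3A and SIN3B are paralogous scaffolds with no DNA-binding domain of their own. They are brought to promoters by sequence-specific repressors such as the MAD family and REST, and hold the deacetylases HDAC1 and HDAC2 together with the histone-binding WD40 proteins RBBP4 and RBBP7. SAP30, SUDS3 and SAP130 stabilise the assembly, and PHF12 is a PHD-finger subunit that is found with SIN3B. HDAC1, HDAC2, RBBP4 and RBBP7 also serve in other complexes such as NuRD, so their RNA is not a measure of the Sin3 complex alone.

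The Sin3Bsg1 target is shown because every comparison of genotypes rests on it. The 20 bases of the guide had 1 exact match in the mouse genome (GRCm39), on the + strand at chr8:73449982-73450001, in exon 1 of Sin3b. They are printed 5′ to 3′ in lower case, with the adjacent PAM (the NGG motif that Cas9 needs) in capitals.
Sin3Bsg1 site: tggctcccgctggggtcgttCGG
The cut, 3 bases before the PAM, falls after base 61 of the coding sequence, in codon 21, in 25 of the 26 coding Sin3b transcripts that GENCODE annotates. The canonical transcript has 3294 coding bases in 19 exons. No other subunit held a close copy of the guide: the fewest mismatches over either strand of their transcripts were 5 of 20 bases, in Suds3, and 7 in the paralog Sin3a. The lncRNA Gm63813 has an exon over the same site on the other strand and was not analysed here. RNA counts do not show whether the reading frame was kept, and protein was not measured in these files. The paper states that its edited lines were checked for knockout by western blot, amplicon sequencing of the target, or both.

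The 4 untreated libraries held 29499676 to 32093612 counts over genes, and the 12 libraries of the IFNγ experiment 18128016 to 27056813. Replicate 1 of sgCtrL with IFNγ stood apart: set against replicates 2 and 3 of its group, chi-square averaged 22.3 and 18.6 per gene, and between those 2 it averaged 4.05. Several results of the 10 subunits that rest on this library are also given without it. Those of the other gene lists are given only with it. The labels do not say that replicates were separate cultures, so p-values measure the spread between these libraries, which may be technical. Markers of the labelled cell type were present, and some moved with the genotype. The 7 epithelial markers summed to 5499 to 5516 TPM in untreated sgCtrL and 7267 to 7367 TPM in untreated Sin3Bsg1, to 3886 to 3965 and 4208 to 4311 TPM without IFNγ, and to 3896 to 4626 and 5161 to 5353 TPM with IFNγ. Krt8, Krt18 and Krt19 carried most of each sum, and Epcam averaged 4.58 to 17.4 TPM in the 6 groups. Of these 7, 7 were higher past the threshold (edgeR adjusted p under 0.05) in untreated Sin3Bsg1 cells, 4 without IFNγ and 6 with IFNγ. Over all genes 15.1%, 7.89% and 8.62% were higher in the same order. The 6 fibroblast markers summed to 31.2 to 31.7 TPM in untreated sgCtrL and 9.88 to 10.9 TPM in untreated Sin3Bsg1, to 85.3 to 89.3 and 74.8 to 79.5 TPM without IFNγ, and to 57.1 to 58.4 and 49.1 to 55.2 TPM with IFNγ. The fibroblast sums came almost wholly from Pdgfra and Pdgfrb. In untreated Sin3Bsg1 cells both were lower, with log2 fold changes of −1.78 and −1.14. In the IFNγ experiment they moved in opposite directions. Pdgfra was lower (−0.26 without and −0.21 with IFNγ) and Pdgfrb higher (0.19 and 0.27). The part of either marker list in the differences of the subunits was not tested. Of the leukocyte markers, Adgre1 and Cd3e had 0 counts in all libraries, Ptprc reached at most 3 and Itgam at most 1. Cd68, the other gene of that list, averaged 10.9 to 12.6 TPM in the 6 groups and carried nearly the whole leukocyte sum of 9.57 to 14.6 TPM. The IFNγ-induced genes Irf1, Psmb8, Tap1 and Gbp2, used as a check of the treatment, rose with log2 fold changes of 3.51 to 8.80 in sgCtrL and 3.57 to 8.35 in Sin3Bsg1.

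Sin3b RNA fell by 57.0 to 58.9% in the 3 comparisons of Sin3Bsg1 with sgCtrL, and it did not disappear. Sin3b (ENSMUSG00000031622, chr8:73449880-73484833, GRCm39) stood at 88.6 and 83.4 CPM (a library's counts divided by its total over genes scaled by TMM, on the usual CPM scale) in the untreated sgCtrL libraries and at 36.5 and 34.1 CPM in the untreated Sin3Bsg1 libraries. Without IFNγ it was 93.2, 95.6 and 88.5 CPM in sgCtrL against 39.3, 38.6 and 39.4 CPM in Sin3Bsg1. With IFNγ it was 80.4, 84.3 and 83.9 CPM in sgCtrL against 33.6, 37.7 and 35.5 CPM in Sin3Bsg1. Every Sin3Bsg1 library lay below every sgCtrL library, with a wide gap, in all 3 settings. The log2 fold change was −1.28 (SE 0.049) in untreated cells, a decrease of 58.9%, with an edgeR adjusted p of 1.19e-11. It was −1.24 (SE 0.052) without IFNγ, where the edgeR adjusted p was 5.1e-10. With IFNγ it was −1.22 (SE 0.052), where the edgeR adjusted p was 5.22e-10. Leaving out replicate 1 of sgCtrL with IFNγ gave −1.23 for this last comparison. Ordered by log2 fold change from the strongest decrease, Sin3b stood at place 183 of 14589 in untreated cells, and at places 216 and 194 of 14913 without and with IFNγ. Ordered by p it stood at places 53, 4 and 8.

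**Figure D1:**
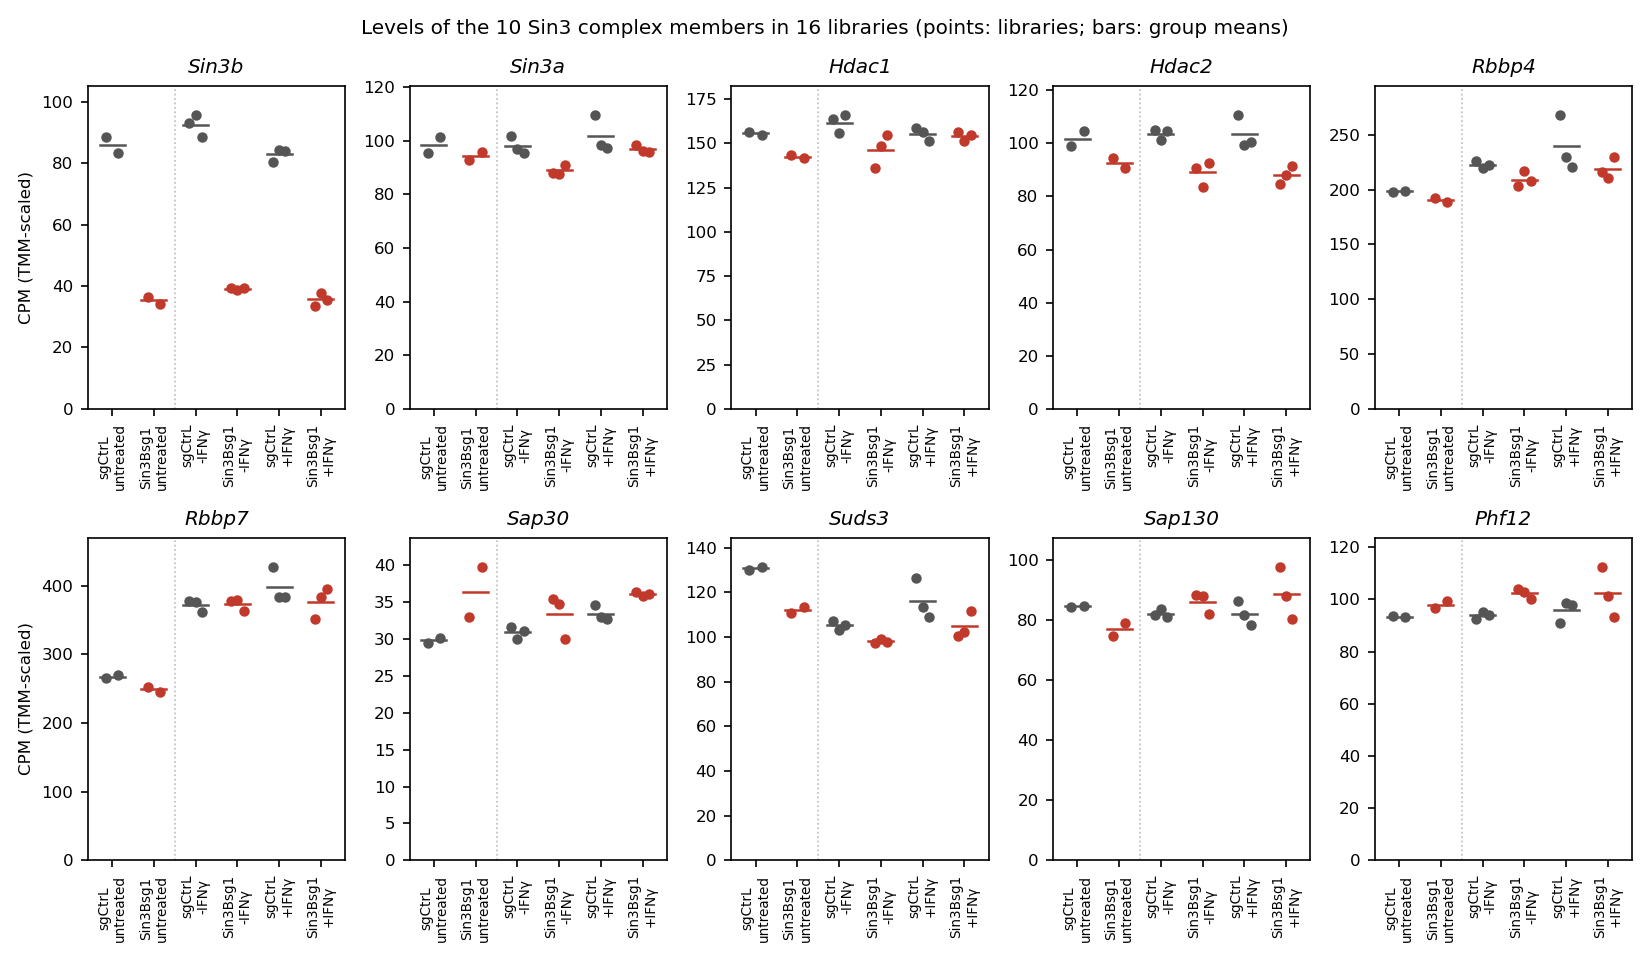
Levels of the 10 subunits in the 16 libraries, in CPM scaled by TMM on a linear axis that starts at 0. Each point is a library (grey sgCtrL, red Sin3Bsg1), each bar is the mean of its group, and the dotted line parts the untreated experiment from the IFNγ experiment, which were normalised apart. Sin3b is the panel in which the red points lie well below the grey ones, at 33.6 to 39.4 CPM against 80.4 to 95.6 CPM.

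The other scaffold, Sin3a, did not pass the test in any of the 3 comparisons, and its estimates were all below 0. Sin3a (ENSMUSG00000042557, chr9:56979324-57037381) stood at 95.5 and 101 CPM in untreated sgCtrL and at 92.9 and 95.7 CPM in untreated Sin3Bsg1, so the groups overlapped. Without IFNγ the sgCtrL libraries were at 102, 97.0 and 95.6 CPM and the Sin3Bsg1 libraries, all lower, at 88.0, 87.8 and 91.1 CPM. With IFNγ the sgCtrL libraries were at 109, 98.6 and 97.3 CPM and the Sin3Bsg1 libraries at 98.4, 96.1 and 95.9 CPM, which again overlapped. The log2 fold change of Sin3a was −0.061 in untreated cells (95% interval −0.14 to 0.021), −0.14 without IFNγ (−0.25 to −0.035) and −0.072 with IFNγ (−0.18 to 0.035). None of these passed the threshold, with edgeR adjusted p of 0.261, 0.0674 and 0.382. The highest upper end of these intervals, which are not adjusted for the number of genes, was 0.035 on the log2 scale. Without replicate 1 of sgCtrL with IFNγ, the estimate with IFNγ was −0.0040, and that without IFNγ passed (−0.13, edgeR adjusted p = 0.0212).

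Per length, Sin3b made up a smaller share of the scaffold RNA in Sin3Bsg1 cells. In TPM, which divides by gene length, Sin3b made up 51.0% ± 2.11 of the summed Sin3a and Sin3b level in untreated sgCtrL (SD, n = 2) and 30.8% ± 1.49 in untreated Sin3Bsg1 (n = 2). Without IFNγ the share was 52.9% ± 0.992 in sgCtrL and 34.4% ± 0.367 in Sin3Bsg1 (SD, n = 3 each). With IFNγ it was 49.3% ± 2.26 and 30.5% ± 1.47 (SD, n = 3 each). The sum of both scaffolds went from 84.1 TPM ± 0.251 to 57.1 TPM ± 0.212 in untreated cells, from 93.1 ± 2.98 to 61.4 ± 1.30 without IFNγ and from 84.9 ± 2.27 to 59.1 ± 1.95 with IFNγ. The shares of the 2 genotypes did not overlap in any of the 3 settings, which follows from the fall of Sin3b itself.

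**Figure D2:**
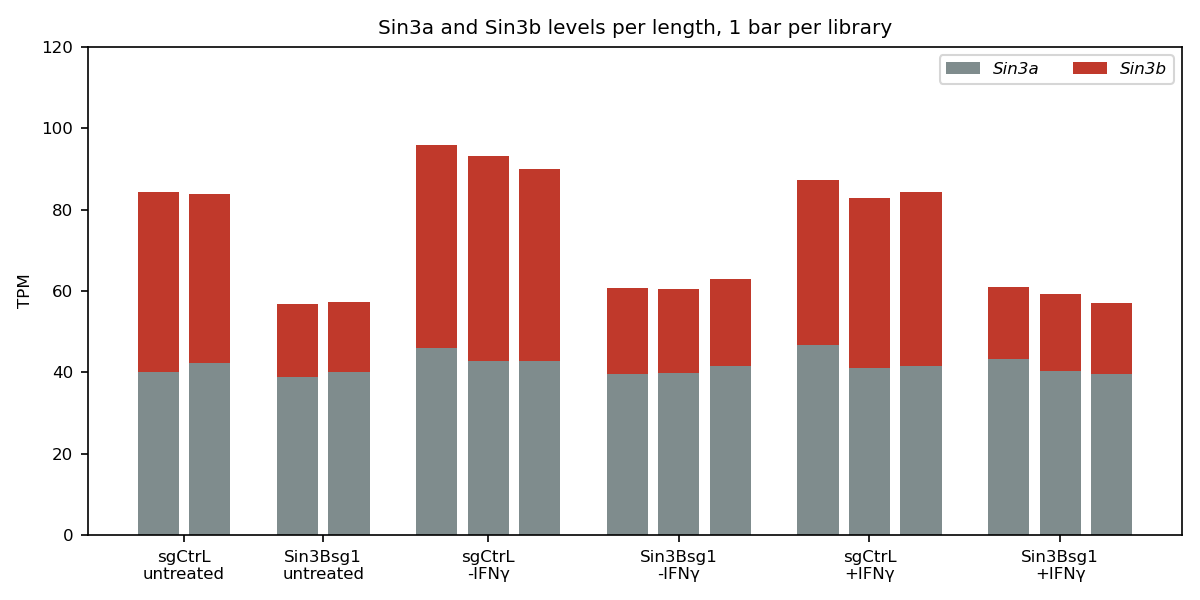
Sin3a (grey) and Sin3b (red) levels in TPM, stacked, with 1 bar for each of the 16 libraries in 6 groups. The grey part keeps a like height of 38.8 to 46.6 TPM throughout, and the red part is shorter in each Sin3Bsg1 library.

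Counted over all 10 subunits, 7 passed the threshold (edgeR adjusted p under 0.05) in untreated Sin3Bsg1 cells, of which 1 was higher and 6 lower. Sin3b, the target of the guide, is among the lower subunits in every count of this paragraph, and its fall follows from the design. In that comparison 31.1% of all 14589 genes tested passed, 15.1% higher and 16% lower. The count was 4 without replicate 2 of sgCtrL. In the IFNγ experiment 2 of the 10 passed without IFNγ and 2 with IFNγ, all lower, against 17.2% and 16.5% of all 14913 genes tested. Of these genes 7.89% were higher and 9.33% lower without IFNγ, and 8.62% were higher and 7.9% lower with IFNγ. The 2 were Sin3b and Hdac2 both times, and these 2 comparisons share no library but share 1 fit. Without IFNγ the count was 1 without Sin3Bsg1 replicate 2, 4 without Sin3Bsg1 replicate 3, 4 without replicate 1 of sgCtrL with IFNγ, and 5 in a fit on the 6 libraries compared. The groups did not overlap for 9 of the 10 in untreated cells, 2 higher and 7 lower, where 63.3% of all genes did not overlap (31.9% higher and 31.4% lower). Without IFNγ this held for 7, 1 higher and 6 lower, against 39.2% of all genes (18.3% higher and 20.9% lower). With IFNγ it held for 3, 1 higher and 2 lower, against 30.4% (15.4% higher and 14.9% lower). Leaving out Sin3b, the median log2 fold change of the other 9 subunits was −0.10 in untreated cells, −0.091 without IFNγ and −0.072 with IFNγ. The median over all genes tested was 0.0024, −0.0090 and 0.0036. The median size regardless of sign was 0.13, 0.11 and 0.11 in these 9 and 0.14, 0.14 and 0.14 in all genes.

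**Figure D3:**
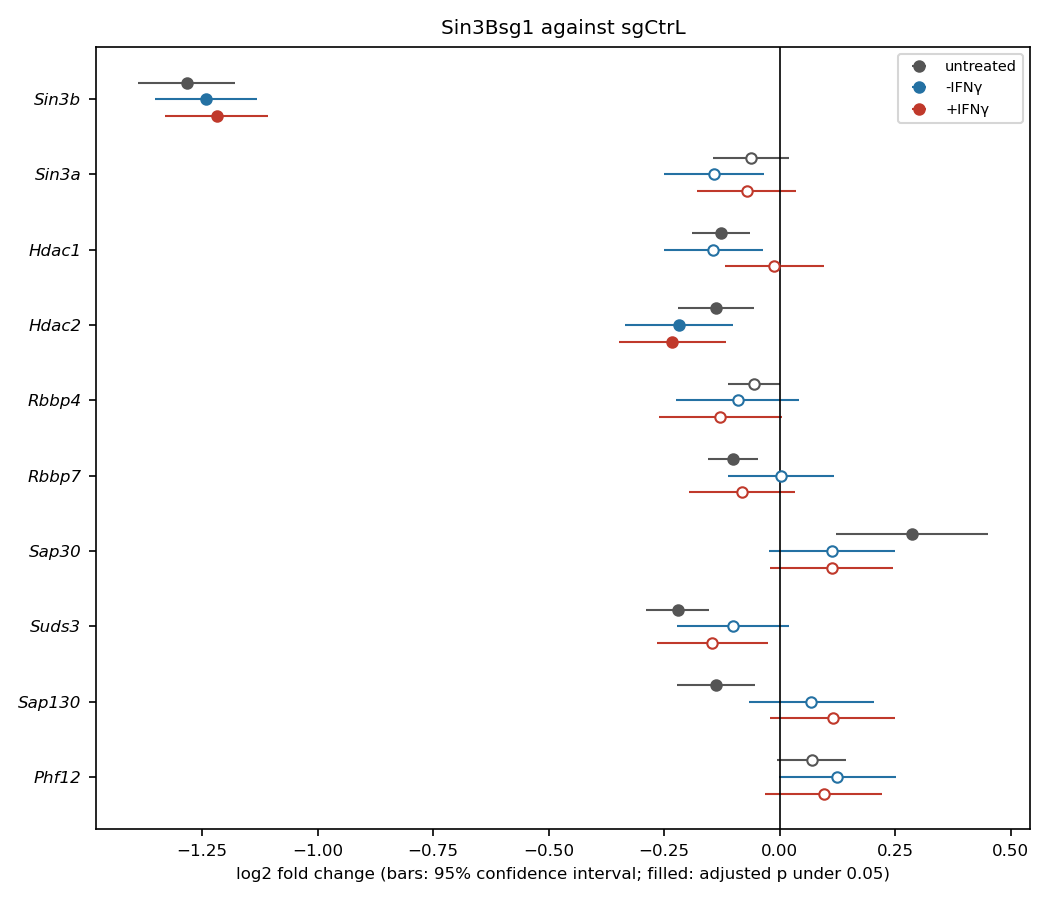
Log2 fold change of each subunit in Sin3Bsg1 against sgCtrL, in untreated cells (grey, 2 libraries a group), without IFNγ (blue, 3 a group) and with IFNγ (red, 3 a group). Points are estimates, bars are unadjusted 95% confidence intervals and filled points passed the adjusted threshold: Sin3b lies near −1.2 to −1.3, all other subunits lie between −0.23 and 0.29, and Hdac2 is the only other subunit filled in all 3 comparisons.

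Hdac2 passed the test as lower in all 3 comparisons, as Sin3b did. The estimates of Sin3a, Hdac1, Rbbp4 and Suds3 were also below 0 in all 3 without passing in each, and whether Hdac2 differs from them was not tested. HDAC2 is a class I deacetylase, the catalytic part of the complex with HDAC1. Hdac2 (ENSMUSG00000019777, chr10:36850435-36877890) stood at 99.1 and 105 CPM in untreated sgCtrL and at 94.4 and 90.6 CPM in untreated Sin3Bsg1. Without IFNγ it was 105, 101 and 105 CPM in sgCtrL and 90.8, 83.7 and 92.7 CPM in Sin3Bsg1. In the IFNγ-treated libraries it was 111, 99.4 and 101 CPM in sgCtrL and 84.5, 88.1 and 91.6 CPM in Sin3Bsg1. The Sin3Bsg1 libraries were below all sgCtrL libraries each time, by a margin that was narrow in untreated cells. It fell by 0.14 on the log2 scale in untreated cells (SE 0.039, edgeR adjusted p = 0.0117). Without IFNγ it fell by 0.22 (SE 0.055, edgeR adjusted p = 0.0111), a decrease of 14.0%. With IFNγ it fell by 0.23 (SE 0.055, edgeR adjusted p = 0.00766), a decrease of 14.9%. Without replicate 1 of sgCtrL with IFNγ, the latter was −0.17 (edgeR adjusted p = 0.0209). The call without IFNγ was lost when replicate 2 of Sin3Bsg1 was left out (−0.17, edgeR adjusted p = 0.0698). In untreated cells it was lost without replicate 2 of Sin3Bsg1 (−0.11, edgeR adjusted p = 0.0746) or replicate 2 of sgCtrL (−0.099, edgeR adjusted p = 0.141), and in DESeq2 (adjusted p = 0.0619).

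Hdac1 passed the test in untreated Sin3Bsg1 cells. HDAC1 is the paralog of HDAC2 and carries the same catalytic activity. Hdac1 (ENSMUSG00000028800, chr4:129409895-129436631) stood at 156 and 155 CPM in untreated sgCtrL and at 144 and 141 CPM in untreated Sin3Bsg1, without overlap. It fell by 0.13 on the log2 scale (SE 0.029, edgeR adjusted p = 0.00342). Without IFNγ the sgCtrL libraries were at 164, 156 and 166 CPM and the Sin3Bsg1 libraries, also lower, at 136, 148 and 155 CPM, a log2 fold change of −0.14 (edgeR adjusted p = 0.065). That difference passed without Sin3Bsg1 replicate 3 (−0.18, edgeR adjusted p = 0.0348) or replicate 1 of sgCtrL with IFNγ (−0.13, edgeR adjusted p = 0.0428). With IFNγ the sgCtrL libraries were at 159, 156 and 151 CPM and the Sin3Bsg1 libraries at 156, 151 and 155 CPM, so the genotypes were intermixed there (log2 fold change −0.011, 95% interval −0.12 to 0.096). Whether the untreated difference differs from those of the IFNγ experiment was not tested. Per length, Hdac1 made up 60.1% ± 1.05 of the summed Hdac1 and Hdac2 TPM in untreated sgCtrL (SD, n = 2) and 60.3% ± 0.442 in untreated Sin3Bsg1 (n = 2). Without IFNγ the share was 60.5% ± 0.364 in sgCtrL and 61.8% ± 2.02 in Sin3Bsg1 (SD, n = 3 each), with overlap. With IFNγ the share was 59.6% ± 1.09 in sgCtrL and 63.3% ± 1.11 in Sin3Bsg1 (SD, n = 3 each), without overlap. Of the 50-base windows of the canonical Hdac1 transcript, 58.5% recur in processed pseudogenes, mostly Hdac1-ps. Hdac1-ps was given 0 to 8 counts in a library where Hdac1 had 3032 to 4650, and some Hdac1 counts were not whole numbers, so reads shared with this copy could be split.

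Of the WD40 subunits, Rbbp7 passed in untreated cells and Rbbp4 in no comparison of genotypes. RBBP4 and RBBP7 bind histones and are shared with NuRD and other chromatin complexes. Rbbp7 (ENSMUSG00000031353, chrX:161543356-161562099) stood at 265 and 270 CPM in untreated sgCtrL and at 253 and 246 CPM in untreated Sin3Bsg1. There it fell by 0.10 on the log2 scale (SE 0.025, edgeR adjusted p = 0.00589), a call that was lost without replicate 2 of sgCtrL (edgeR adjusted p = 0.0505). Without IFNγ its values were 361 to 378 CPM in sgCtrL and 363 to 378 CPM in Sin3Bsg1, which is nearly the same range. With IFNγ they were 427, 383 and 384 CPM in sgCtrL and 351, 383 and 394 CPM in Sin3Bsg1, a log2 fold change of −0.081 (edgeR adjusted p = 0.349). Rbbp4 (ENSMUSG00000057236, chr4:129184867-129229170) stood at 198 and 199 CPM in untreated sgCtrL and at 193 and 189 CPM in untreated Sin3Bsg1, a small gap without overlap. Its log2 fold change was −0.056 in untreated cells, −0.091 without IFNγ and −0.13 with IFNγ, with edgeR adjusted p of 0.132, 0.373 and 0.187. Leaving out replicate 1 of sgCtrL with IFNγ, which at 268 CPM was the highest Rbbp4 value of all libraries, changed the last of these to −0.029.

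Sap30 was the 1 subunit that passed the threshold as higher in Sin3Bsg1 cells, and it did so in the untreated experiment. SAP30 bridges the scaffold and the deacetylase module. Sap30 (ENSMUSG00000031609, chr8:57935731-57940931) stood at 29.5 and 30.2 CPM in untreated sgCtrL and at 33.1 and 39.8 CPM in untreated Sin3Bsg1. The Sin3Bsg1 libraries were both above sgCtrL but differed from each other more than the sgCtrL libraries did. It rose by 0.29 on the log2 scale (SE 0.077, edgeR adjusted p = 0.00927), an increase of 21.9%. Without replicate 2 of Sin3Bsg1 the difference was 0.15 and no longer passed (edgeR adjusted p = 0.169). Without IFNγ it was at 31.6, 30.0 and 31.1 CPM in sgCtrL and at 35.4, 34.7 and 30.0 CPM in Sin3Bsg1, a log2 fold change of 0.11 (edgeR adjusted p = 0.263). After IFNγ it was at 34.6, 33.0 and 32.7 CPM in sgCtrL and at 36.4, 35.9 and 36.2 CPM in Sin3Bsg1, again 0.11 (edgeR adjusted p = 0.256) but without overlap. In a fit without Sin3Bsg1 replicate 3, the difference without IFNγ passed (0.18, edgeR adjusted p = 0.0479). Exons of the lncRNA 2500002B13Rik cover 31.1% of the exonic bases of Sap30 on the opposite strand. The strand setting of the counting is not given in the sources used here, so reads of both could be mixed. The lncRNA was at 3.66 and 4.02 CPM in untreated sgCtrL and at 4.48 and 4.60 CPM in untreated Sin3Bsg1, and its part in the Sap30 difference was not tested.

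Suds3 and Sap130 were lower in untreated Sin3Bsg1 cells. SUDS3 is the mammalian counterpart of yeast Sds3 and keeps the deacetylase activity of the complex. Suds3 (ENSMUSG00000066900, chr5:117229010-117254207) stood at 130 and 131 CPM in untreated sgCtrL and at 111 and 114 CPM in untreated Sin3Bsg1, a clear gap. It fell by 0.22 on the log2 scale (SE 0.032, edgeR adjusted p = 5.67e-05), a decrease of 14.2%, which apart from Sin3b was the largest fall among the subunits in untreated cells. Without IFNγ it was at 107, 103 and 105 CPM in sgCtrL and at 97.4, 99.2 and 97.7 CPM in Sin3Bsg1. After IFNγ it was at 126, 113 and 109 CPM and at 100.5, 102 and 112 CPM. Both differences, −0.10 and −0.15, missed the threshold (edgeR adjusted p = 0.259 and 0.0918). The one with IFNγ passed without Sin3Bsg1 replicate 3 (−0.19, edgeR adjusted p = 0.0348) or sgCtrL replicate 3 (−0.19, edgeR adjusted p = 0.0428), and was −0.071 without replicate 1 of sgCtrL.

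Sap130 (ENSMUSG00000024260, chr18:31767370-31856121), which encodes another Sin3-associated protein, stood at 84.3 and 84.9 CPM in untreated sgCtrL and at 74.8 and 79.1 CPM in untreated Sin3Bsg1. It fell by 0.14 on the log2 scale (SE 0.040, edgeR adjusted p = 0.0146). The call was lost without replicate 1 of Sin3Bsg1 (edgeR adjusted p = 0.158), without replicate 2 of sgCtrL (edgeR adjusted p = 0.0659) and in DESeq2 (adjusted p = 0.0928). In the IFNγ experiment the estimates had the other sign, 0.068 without and 0.11 with IFNγ, and did not pass (edgeR adjusted p = 0.531 and 0.252). There its values were 78.3 to 86.3 CPM in sgCtrL and 80.6 to 97.8 CPM in Sin3Bsg1 over both treatments, so the genotypes overlapped.

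PHF12 is the subunit found with SIN3B. Phf12 (ENSMUSG00000037791, chr11:77873461-77921375) did not pass in any comparison of genotypes, and its estimates were above 0 in all 3. It stood at 93.6 and 93.3 CPM in untreated sgCtrL and at 96.7 and 99.3 CPM in untreated Sin3Bsg1, a log2 fold change of 0.069 (95% interval −0.0063 to 0.14). Without IFNγ it was at 92.5, 95.3 and 93.8 CPM in sgCtrL and at 104, 103 and 100.2 CPM in Sin3Bsg1, a log2 fold change of 0.12 (−0.0024 to 0.25). After IFNγ it was at 91.0, 98.4 and 97.8 CPM and at 112, 101 and 93.2 CPM, a log2 fold change of 0.095 (−0.032 to 0.22). The Sin3Bsg1 libraries were above all sgCtrL libraries in untreated cells and without IFNγ, and the groups overlapped with IFNγ. The edgeR adjusted p-values were 0.163, 0.179 and 0.321. In a fit on the 6 libraries compared, the difference without IFNγ passed (0.13, edgeR adjusted p = 0.0122).

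A further 13 genes that encode Sin3-associated proteins were tested. In untreated cells 1 was higher and 3 were lower, with IFNγ 2 were lower, and without IFNγ 1 was higher and 1 lower. These counts stand near the shares over all genes, of which 31.1%, 16.5% and 17.2% passed in the same order. Their median log2 fold change was 0.0022 in untreated cells, −0.051 without IFNγ and 0.0035 with IFNγ. In untreated cells Arid4a, a chromatin-binding subunit, rose by 0.35 (SE 0.055, edgeR adjusted p = 0.000128), Brms1l fell by 0.22, and Gatad1 and Morf4l1 fell by 0.099 each. Without IFNγ Sap18 rose by 0.31 (SE 0.076, edgeR adjusted p = 0.00943). With IFNγ Gatad1 fell by 0.27 (SE 0.062, edgeR adjusted p = 0.00727).

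Sinhcaf, which encodes the SIN3-HDAC complex associated factor (FAM60A), fell by 54.6% and 55.0% in the IFNγ experiment. Its levels without IFNγ were 24.2, 27.1 and 28.1 CPM in sgCtrL and 12.1, 11.5 and 12.5 CPM in Sin3Bsg1. After IFNγ it stood at 28.8, 24.3 and 29.8 CPM in sgCtrL and at 12.3, 11.7 and 13.2 CPM in Sin3Bsg1. All 6 Sin3Bsg1 libraries lay well below all 6 sgCtrL libraries. The log2 fold change was −1.14 without IFNγ (SE 0.090, edgeR adjusted p = 2.89e-07). After IFNγ it was −1.15 (SE 0.089, edgeR adjusted p = 2.29e-07). In the untreated experiment the sgCtrL libraries were at 8.64 and 9.02 CPM and the Sin3Bsg1 libraries at 7.19 and 8.39 CPM, a log2 fold change of −0.18 (95% interval −0.44 to 0.082, edgeR adjusted p = 0.306). The sgCtrL level of Sinhcaf stood at 8.83 CPM on average in one experiment and at 26.5 CPM in the other, tables that were normalised apart. The difference between experiments was not tested, and experiment and the state of the cells cannot be told apart.

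**Figure D4:**
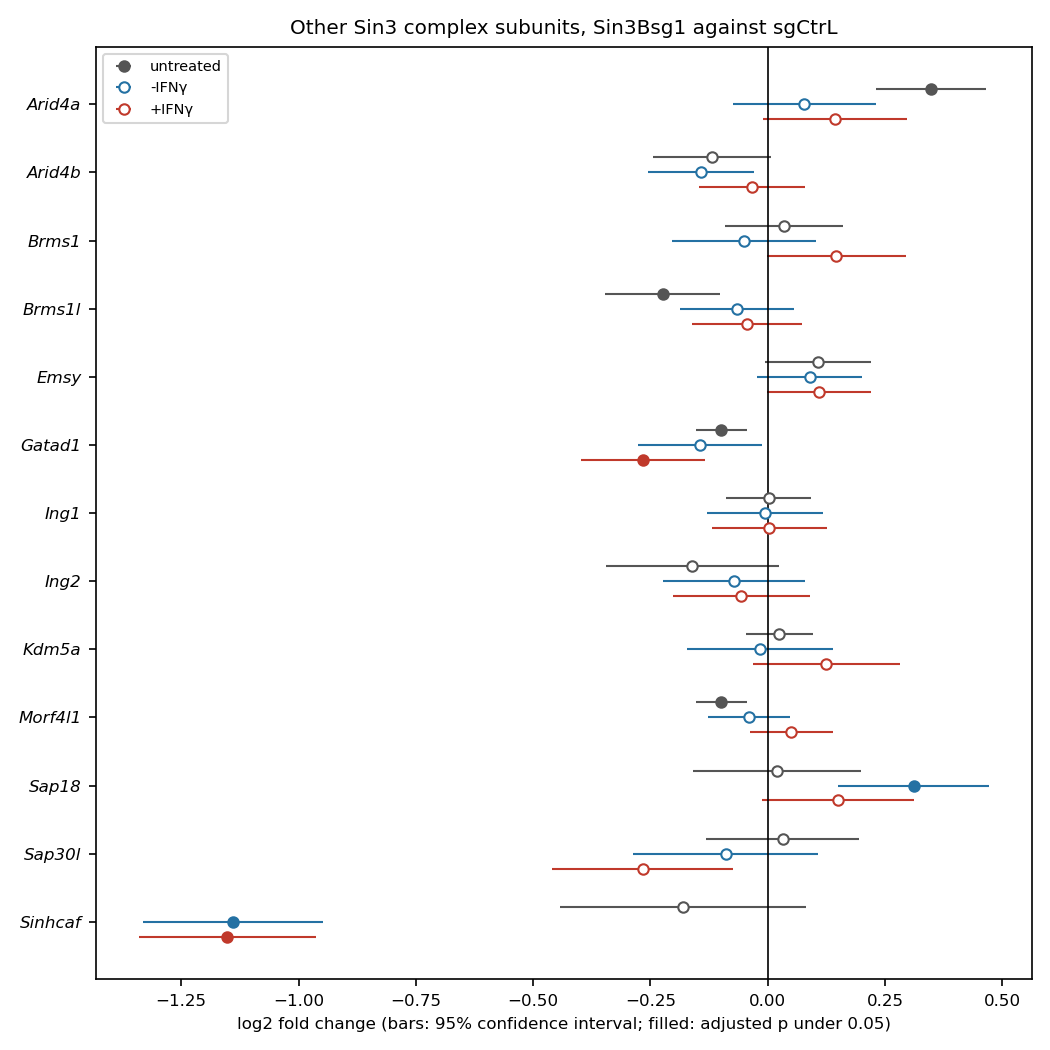
Log2 fold change of 13 other genes for Sin3-associated proteins in Sin3Bsg1 against sgCtrL, in untreated cells (grey), without IFNγ (blue) and with IFNγ (red). Bars are unadjusted 95% confidence intervals and filled points passed the adjusted threshold: Sinhcaf lies at −1.14 and −1.15 in the IFNγ experiment and at −0.18, open, in untreated cells, and every other gene lies between −0.27 and 0.35.

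Sin3b was the 1 subunit that passed the threshold with IFNγ, as lower in sgCtrL cells (−0.16). In Sin3Bsg1 cells its estimate was also below 0 (−0.13) but did not pass. In sgCtrL 1 of the 10 subunits passed, against 30.2% of all genes tested (15.7% higher and 14.5% lower). The count was 2 without sgCtrL replicate 3 with IFNγ, when Suds3 also passed (0.19, edgeR adjusted p = 0.0283). In Sin3Bsg1 cells 0 passed in edgeR, against 28.4% of all genes, although 2 had an unadjusted p under 0.05, and 0 passed in DESeq2. Without replicate 1 of sgCtrL with IFNγ, which enters the shared estimate of spread, 2 passed there, Sin3a (0.11, edgeR adjusted p = 0.0303) and Sin3b (−0.14, edgeR adjusted p = 0.0377). The groups with and without IFNγ did not overlap for 4 of the 10 in sgCtrL and 4 in Sin3Bsg1, 3 higher and 1 lower each time. Among all genes 41.5% did not overlap in sgCtrL (20.8% higher and 20.7% lower) and 45.4% in Sin3Bsg1 (24.3% higher and 21.1% lower). The median size of the change regardless of sign was 0.057 in sgCtrL and 0.067 in Sin3Bsg1 over the 9 subunits other than Sin3b, and 0.19 and 0.18 over all genes. The 2 comparisons share no library but share 1 fit, and each shares its libraries with the comparisons of genotypes above.

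Sin3b went from 92.4 CPM ± 3.61 to 82.9 CPM ± 2.15 in sgCtrL (SD, n = 3 each), without overlap. It fell by 0.16 on the log2 scale (SE 0.050, edgeR adjusted p = 0.0264), a decrease of 10.4%. Without replicate 1 of sgCtrL with IFNγ it was −0.15 (edgeR adjusted p = 0.0354). The call was lost without replicate 1 of sgCtrL without IFNγ (edgeR adjusted p = 0.0809) and without replicate 2 of that group (edgeR adjusted p = 0.119). In Sin3Bsg1 cells Sin3b went from 39.1 CPM ± 0.412 to 35.6 CPM ± 2.04 (SD, n = 3 each), also without overlap, a log2 fold change of −0.13 (SE 0.054, edgeR adjusted p = 0.0753). That difference passed without Sin3Bsg1 replicate 2 with IFNγ (−0.20, edgeR adjusted p = 0.0226) or sgCtrL replicate 2 with IFNγ (−0.16, edgeR adjusted p = 0.0429). The interaction, which tests whether the 2 genotypes differ in this change, was 0.023 on the log2 scale (95% interval −0.13 to 0.18, edgeR adjusted p = 0.996).

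No other subunit passed with IFNγ in either genotype. Sin3a in Sin3Bsg1 cells had a log2 fold change of 0.12 (95% interval 0.015 to 0.23, edgeR adjusted p = 0.0845). Suds3 in sgCtrL cells had 0.14 (95% interval 0.022 to 0.26, edgeR adjusted p = 0.0701), and without replicate 1 of sgCtrL with IFNγ 0.070. Sap30 had 0.11 in both genotypes (edgeR adjusted p = 0.205 and 0.198). Hdac2 had −0.0022 in sgCtrL (95% interval −0.12 to 0.11) and −0.016 in Sin3Bsg1 (−0.13 to 0.10). The interaction of genotype and IFNγ was past the threshold for 0 of the 10 subunits in edgeR and in DESeq2, and 0 had an unadjusted p under 0.05. It was past the threshold for 0.114% of all genes (0.0805% above 0 and 0.0335% below). Its largest value among the subunits was 0.13 for Hdac1 (95% interval −0.020 to 0.28, edgeR adjusted p = 0.931).

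**Figure D5:**
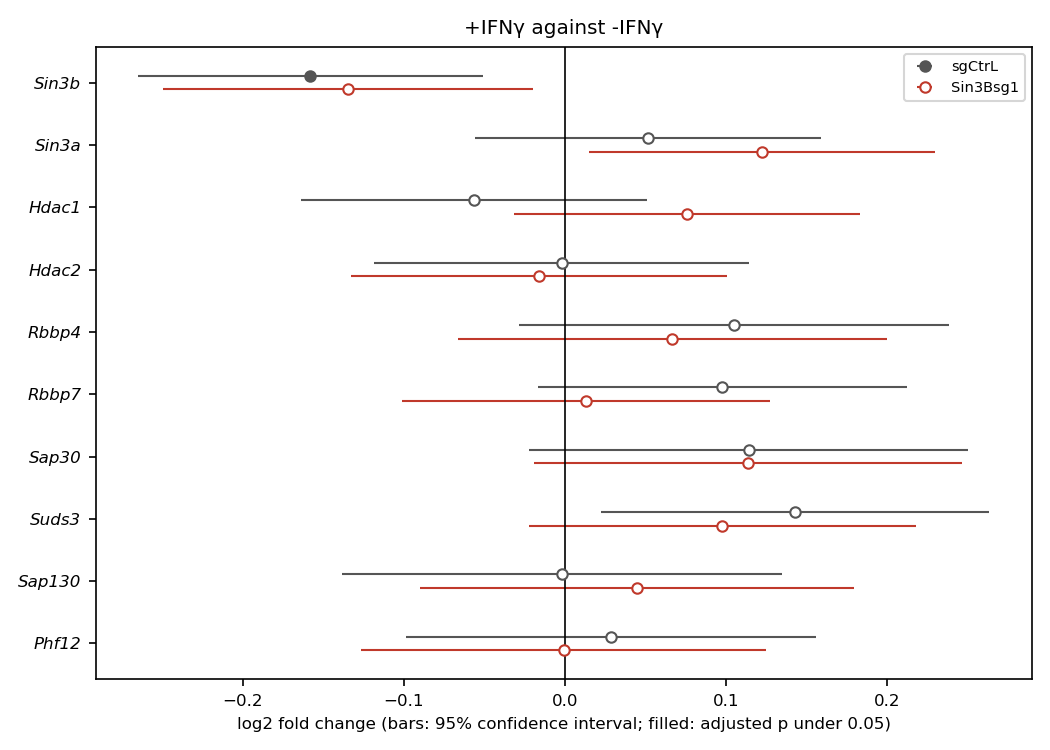
Log2 fold change of each subunit with IFNγ against without IFNγ, in sgCtrL (grey) and Sin3Bsg1 (red), 3 libraries in each group. Bars are unadjusted 95% confidence intervals and filled points passed the adjusted threshold: Sin3b in sgCtrL, at −0.16, is the 1 filled point, and all estimates lie between −0.16 and 0.14.

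Among the 13 other Sin3-associated genes, 4 were higher and 2 lower with IFNγ in sgCtrL, and 4 were higher and 1 lower in Sin3Bsg1. Over all genes 15.7% were higher and 14.5% lower in sgCtrL, and 16.1% and 12.3% in Sin3Bsg1. Kdm5a, a histone H3K4 demethylase, fell by 0.35 in sgCtrL (edgeR adjusted p = 0.00216) and by 0.20 in Sin3Bsg1 (edgeR adjusted p = 0.0498). Brms1l rose by 0.20 and 0.22, and Ing2, a PHD-finger reader of H3K4 methylation, by 0.21 and 0.23. In sgCtrL Gatad1 rose by 0.24, Sap30l by 0.26, and Arid4b fell by 0.19. In Sin3Bsg1 Brms1 rose by 0.34 and Morf4l1 by 0.14. Sinhcaf had 0.056 in sgCtrL and 0.044 in Sin3Bsg1 and did not pass in either.

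Sin3 partners, mostly factors that bring it to DNA, and other complexes that hold the same deacetylases were counted in the same way. Over all genes 31.1% passed in untreated cells (15.1% higher and 16% lower), 17.2% without IFNγ and 16.5% with IFNγ. The 9 partners include Ogt, an O-GlcNAc transferase that binds SIN3A and does not bind DNA, which is 1 of those counted as higher in untreated cells and as lower after IFNγ. Of the 9, 2 were higher and 4 lower in untreated Sin3Bsg1 cells, led by Mxd1 (0.35) and Mnt (−0.26). Without IFNγ 1 was higher, Mxd1 (0.25), and 1 lower, Rest (−0.20). With IFNγ 1 was lower, Mnt (−0.30). Their medians were −0.094, −0.057 and −0.025 in these 3 comparisons. Mxd1 encodes MAD1, Mnt another MAX partner, and Rest a repressor of neuronal genes. After IFNγ 3 of the 9 were lower in each genotype, against 14.5% of all genes in sgCtrL and 12.3% in Sin3Bsg1, with the largest fall in Mxd4, a MAD family repressor, by 0.84 on the log2 scale in sgCtrL (SE 0.079, edgeR adjusted p = 5.65e-07). In Sin3Bsg1 Mxd4 fell by 0.87 (SE 0.078, edgeR adjusted p = 3.01e-07).

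NuRD, which contains HDAC1 and HDAC2 with a CHD remodeler, had 7 of 10 further subunits lower in untreated Sin3Bsg1 cells, the largest fall being Mta3 (−0.30), where 16% of all genes were lower. Without IFNγ 1 was higher, Mbd2 (0.18), against 7.89% of all genes. With IFNγ 0 passed in edgeR, against 16.5% of all genes, with 2 at an unadjusted p under 0.05. The median log2 fold change of these 10 was −0.11, −0.053 and −0.035 in the 3 comparisons of genotypes. IFNγ raised 3 and lowered 1 NuRD subunit in sgCtrL, led by Mta1 (0.32) and Chd3 (−0.47). In Sin3Bsg1 it raised Mta1 (0.30) and lowered Chd3 (−0.34). Over all genes 15.7% were raised and 14.5% lowered in sgCtrL, and 16.1% and 12.3% in Sin3Bsg1. Of 5 CoREST genes, 2 were lower in untreated Sin3Bsg1 cells, against the same 16% of all genes, led by Rcor2 (−0.24). Rcor3 (0.25) was higher without IFNγ, against 7.89% of all genes. Of 3 MiDAC genes, 2 were lower in untreated cells, led by Trerf1 (−0.24), 2 without IFNγ and 1 with IFNγ, both led by Dnttip1 (−0.36 and −0.21). Over all genes 16%, 9.33% and 7.9% were lower in these comparisons. IFNγ lowered 1 MiDAC gene in sgCtrL, Trerf1 (−0.25), against 14.5% of all genes. In untreated cells, without IFNγ and with IFNγ, the medians between genotypes were 0.017, −0.11 and −0.022 for CoREST and −0.15, −0.24 and −0.053 for MiDAC.

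The other 8 histone deacetylase genes tested included several class II enzymes. In untreated Sin3Bsg1 cells 3 were lower, against 16% of all genes, led by Hdac7 (−0.33, edgeR adjusted p = 2.94e-07). Without IFNγ 3 were lower and 1 higher, led by Hdac7 (−0.29) and Hdac5 (0.19). With IFNγ 2 were lower and 1 higher, led by Hdac6 (−0.24) and Hdac5 (0.27). Over all genes 9.33% were lower and 7.89% higher without IFNγ, and 7.9% and 8.62% with IFNγ. Their medians were −0.085, −0.21 and −0.10. IFNγ lowered 6 of the 8 in sgCtrL and 3 in Sin3Bsg1, against 14.5% and 12.3% of all genes. The largest fall was in Hdac11 (−0.67 and −0.94, SE 0.23 each, edgeR adjusted p = 0.0387 and 0.00545). Hdac11 levels were low, at 1.55 to 4.95 CPM in the libraries of the IFNγ experiment. The median log2 fold change of these 8 genes with IFNγ was −0.33 in sgCtrL and −0.23 in Sin3Bsg1, beside a median of −0.00062 and 0.0052 over all genes.

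The genes whose levels correlated most with those of Sin3b over the 12 libraries of the IFNγ experiment were Gpnmb, Hhip, Mpdz, Ror2 and Gli3. They were found among 10502 genes with a mean of at least 5 CPM by Pearson's r of log2 levels, which ran from 0.983 to 0.988. The 12 libraries form 4 groups, so r is a description of few independent points, with no test. It takes no account of the level of a gene or the size of its change. Gpnmb was at a mean of 667 CPM in sgCtrL and 540 CPM in Sin3Bsg1 without IFNγ. Hhip, which encodes a Hedgehog-binding membrane protein, was at 21.7 and 2.61 CPM. Gli3, a transcription factor of the Hedgehog pathway, was at 9.84 CPM in sgCtrL and was the lowest of the 5. Ror2 was at 31.1 and 11.2 CPM, and Mpdz at 52.5 and 36.9 CPM.

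Per length, the order of the subunits was much the same in all 6 groups. Rbbp7 was the highest, at means of 228 to 369 TPM, above every other subunit without overlap. Hdac1 and Suds3 came next, in reverse order in untreated sgCtrL and overlapping in sgCtrL with IFNγ. Hdac2 and Rbbp4 followed at 88.8 to 113 TPM, and Sap30 at 52.0 to 63.8 TPM. The lowest levels belonged to Phf12, Sap130, Sin3a and Sin3b. In untreated sgCtrL Sap130, Sin3b and Sin3a lay at 43.1, 42.9 and 41.2 TPM and each overlapped its neighbour. In the 3 Sin3Bsg1 groups Sin3b was the lowest subunit, at 17.6 TPM ± 0.785 in untreated cells (SD, n = 2), 21.1 ± 0.279 without IFNγ (SD, n = 3) and 17.5 to 18.9 TPM with IFNγ, and overlapped none of the others. In sgCtrL without IFNγ Sin3b was above Phf12, Sap130 and Sin3a, at 49.2 TPM ± 1.71 (SD, n = 3).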

How the data were processed

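RNA-seq counts of 16 KPC1199 libraries were used. The authors deposited 2 tables of estimated counts per gene, not normalised, beside the length of each gene and columns named for the groups, which were not used here. The submitters' processing notes name fastp, HISAT2, StringTie, DESeq2 and the build mm39, whereas the paper's methods name HISAT2, featureCounts and mm9. Versions, annotation and strand setting are not given in the sources used here. Columns named for a lacZ guide were treated as the sgCtrL libraries, since Sin3Bsg1 is the only other guide in either table.

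Estimated counts were rounded to whole numbers. In the untreated experiment, 324 assembled loci without a gene name (0.615 to 0.677% of counts) were left out. Tables were fitted apart with edgeR 4.0.16 in R 4.3.3 (TMM, filterByExpr, two-sided quasi-likelihood test, Benjamini-Hochberg adjustment over all genes tested, threshold 0.05), with 4 untreated libraries in one fit and 12 in the other. TPM used the deposited gene lengths. Standard errors were derived from the fold change and the F statistic. The common coefficient of variation was 2.84% and 6.78%. Alternatives were DESeq2 1.42.0, its size factors, no filter, a replicate block, a fit on the 6 libraries compared, and leaving out each library. Fits were tested on simulated data. The guide came from the study's oligo list and was matched to GRCm39 with GENCODE M39 genes, and gene positions are from that annotation, matched by identifier. All members were named, and the 5 genes most like Sin3b by Pearson's r. Of other Sin3 genes those past the threshold were named, and of each other list the largest rise and fall. Genes that overlap or copy a member (2500002B13Rik, Hdac1-ps) were added after the data were seen. Some genes, alleles and a gene list are not reported here. Members and lists were chosen with earlier results of these data known. Tables and figures used Python 3.11.15, pandas 2.3.3 and matplotlib 3.10.9.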

Additional observations from a re-analysis of the deposited data

How the results depend on the processing

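The fall of Sin3b in Sin3Bsg1 cells kept its direction and its side of the threshold in all 3 comparisons under every alternative run. Without 1 library each, its log2 fold change was −1.33 to −1.23 in untreated cells, −1.27 to −1.22 without IFNγ and −1.26 to −1.18 with IFNγ. The fall of Sin3b with IFNγ was closer to the threshold. Without a filter on low counts it was −0.16 in sgCtrL (edgeR adjusted p = 0.0577), and 0 subunits passed. With DESeq2's size factors it was −0.16 in Sin3Bsg1 (edgeR adjusted p = 0.0383), and 1 subunit passed there. Without 1 library each it was −0.19 to −0.13 in sgCtrL and −0.20 to −0.12 in Sin3Bsg1, and the interaction of Sin3b was −0.040 to 0.053.

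The number of subunits that passed, without 1 library each, was 4 to 7 in untreated cells (4 without sgCtrL replicate 2), 1 to 4 without IFNγ (1 without Sin3Bsg1 replicate 2 of that setting), 0 to 2 for IFNγ in sgCtrL and 0 to 2 for IFNγ in Sin3Bsg1. In fits on the 6 libraries compared, 5 passed without IFNγ, with Sin3a (−0.13) and Hdac1 (−0.14) lower and Phf12 (0.13) higher, and 1 passed for IFNγ in Sin3Bsg1, Sin3a (0.12). The causes were not tested.

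Estimates near 0 changed sign. Rbbp7 with IFNγ in Sin3Bsg1 was −0.0088 with DESeq2's size factors and −0.0088 in DESeq2. Without 1 library each, ranges that crossed 0 were, for IFNγ in sgCtrL, −0.062 to 0.020 for Hdac2, −0.049 to 0.033 for Sap130 and −0.013 to 0.084 for Sin3a. For IFNγ in Sin3Bsg1 they were −0.068 to 0.014 for Hdac2, −0.10 to 0.039 for Phf12, −0.045 to 0.032 for Rbbp7 and −0.058 to 0.087 for Sap130. For the interaction they were −0.062 to 0.037 for Hdac2, −0.13 to 0.014 for Phf12, −0.095 to 0.052 for Rbbp4, −0.052 to 0.094 for Sap130, −0.072 to 0.045 for Sap30 and −0.11 to 0.020 for Suds3. For genotype they were −0.031 to 0.017 for Hdac1 with IFNγ and −0.017 to 0.024 for Rbbp7 without IFNγ.

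Counts over all genes moved most for the interaction, with 17 genes in the report, 110 without a filter, 32 in DESeq2 and 1 to 33 without 1 library each. In fits on 6 libraries 3996 genes passed without IFNγ instead of 2568, and 1500 with IFNγ instead of 2464. Replicate numbers were not taken as pairs, since the labels do not say what a number marks. In the IFNγ experiment the deviations of libraries with the same number correlated at −0.048 to 0.17, and with different numbers at −0.19 to 0.11. In the untreated experiment the values were 0.020 and −0.020. With 2 libraries a group these mirror each other by construction, so they cannot show whether numbers mark pairs. With the replicate number as a block, 7, 2, 2, 1, 0 and 0 subunits passed, as in the report, and the 1 estimate that changed sign was the interaction of Sap30 (0.0016). As shares of CPM, without gene length, Sin3b made up 26.9 to 48.5% of both scaffolds over the 6 groups. The lowest count of a subunit in a library was 582, for Sap30.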
